A study of Mus musculus with 8 samples.

Results

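The proteases of the ADAM, ADAMTS and ADAMTS-like families were followed in the aortas of 8 mice given angiotensin II, a model of abdominal aortic aneurysm. Members were taken by name, as every row whose symbol is Adam, Adamts or Adamtsl followed by a number, which gave 57 of the 23420 genes in the table: 33 ADAM, 19 ADAMTS and 5 ADAMTSL genes. All 8 mice were ApoE-/- recipients, irradiated at 6 weeks of age, rebuilt with fetal liver cells and perfused with angiotensin II for 28 days. In 4 mice (Ntn1-/-→ApoE-/-, here Ntn1-/- A to D) the donor cells were Ntn1-/- ApoE-/-, and in the other 4 (WT→ApoE-/-, here WT A to D) they were Ntn1+/+ ApoE-/-, so that donors and recipients of both groups lacked ApoE. Netrin-1 was thus missing from blood-derived cells alone, since the recipients' own vessel wall cells kept an intact Ntn1 gene. Each library was made from 1 aorta, and no untreated aorta was analysed here, so the values compare the chimeras with each other and not with healthy vessel. The authors report aneurysm in a smaller share of Ntn1-/- than of WT chimeras. The labels do not say which of the 8 aortas had one.

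ADAMs are membrane proteins with a metalloproteinase and a disintegrin domain, and many of them cut the outer part of other membrane proteins, such as growth factor precursors, Notch receptors and adhesion molecules, from the cell surface. ADAMTS proteases are secreted, carry thrombospondin repeats and act on the matrix: they cut the large proteoglycans aggrecan and versican, trim procollagens, cleave cartilage oligomeric matrix protein (COMP) or von Willebrand factor, or bind fibrillin microfibrils. ADAMTS-like proteins have the repeats without the protease domain. In the artery wall these families are known from matrix turnover during development, atherosclerosis and aneurysm. A protease domain of this kind works through a zinc ion that 3 histidines hold, with a glutamate beside the first of them.

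The codons of this zinc site are what the cutting members share, so they are shown for genes on which the results turn. The site was searched in the longest annotated coding sequence of each gene (GENCODE annotation of the NCBIM37, or mm9, build) as histidine, glutamate, any 2 residues, histidine, any 5 residues and histidine, in the reading frame. It was found in 96 of 22737 protein-coding genes (0.422%) and in 39 of the 57 members. Sequences run 5′ to 3′ on the coding strand over 33 bases, and capitals mark the codons of the histidines and of the glutamate.
Adam15: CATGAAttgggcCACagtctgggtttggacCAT
Adam17: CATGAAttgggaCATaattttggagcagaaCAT
Adam10: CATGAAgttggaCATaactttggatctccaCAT
Adamts1: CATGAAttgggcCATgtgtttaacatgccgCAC
Adamts4: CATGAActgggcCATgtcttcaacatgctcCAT
Adamts5: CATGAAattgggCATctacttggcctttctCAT
Adamts2: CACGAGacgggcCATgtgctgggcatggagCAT
Adamts6: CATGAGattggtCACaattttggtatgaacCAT
Adamts12: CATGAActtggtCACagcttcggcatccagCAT
The Adam15 site lies within exon 11 at chr3:89148702-89148734 on the minus strand, and the Adam17 site within exon 12 at chr12:21342593-21342625 on the minus strand. The Adam10 site is split between exons and spans chr9:70602103-70609392 on the plus strand. Of 26 tested members with the site, all 16 ADAMTS genes had it split by an intron, whereas in 9 of 10 ADAM genes it lay in 1 exon. The codon between the second and the third histidine at which most metalloproteinases of this kind have glycine was glycine in 20 tested members, asparagine in 5 (Adamts1, Adamts4, Adamts9, Adamts15 and Adamts20) and serine in Adamts8, so the 6 members without glycine were all proteoglycan-cleaving ADAMTS genes. Adamts1 and Adamts4 shared 27 of the 33 bases, and Adam10 and Adam17 shared 26. The site was not found in Adam11, Adam22, Adam23, Adam4 and Adam5 among the tested ADAM genes, nor in the 5 ADAMTSL genes.

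The values below are read counts per gene divided by the library's size factor, called normalized reads. Between 19879329 and 28202931 reads in genes stood behind each library, with a median of 20687637 in WT and 24283270 in Ntn1-/-, and the members took 0.151% to 0.182% of them. Smooth muscle markers were high in every aorta, with sums of 310699 to 808349 normalized reads. Ntn1 itself, which the recipients' wall cells still carry, was at 7923 ± 2419 in Ntn1-/- and at 7564 ± 1698 in WT (SD, n = 4 each), so its level does not check the labels in whole aorta. Summed neuron markers reached 14903 in Ntn1-/- B and 11810 in Ntn1-/- C, against 4757 to 6428 in the other 6 libraries. Summed skeletal muscle markers were at 6839 and 6799 in the same aortas, against 212 to 2476 elsewhere, and Schwann cell markers were also highest there, at 5175 and 4547, against 2151 to 3565. Results were therefore also computed without these 2 aortas. Of 10 neuron markers, 8 were higher in Ntn1-/- and 0 lower at an unadjusted p under 0.05 in limma, beside 8.37% and 7.25% of all tested genes. Syt1 was also above every WT aorta in Ntn1-/- A and Ntn1-/- D, at 211 and 223 against 101 to 147. So was Prph, at 381 and 434 against 304 to 356. Snap25 and Th were not, with 165 and 279 in Ntn1-/- A. Uchl1 made the largest part of the sum in every aorta and was lowest in Ntn1-/- D, at 2369. Summed liver markers were at 6533 to 8239 in WT A, WT C and WT D, against 384 to 1878 elsewhere. Values for other cell types are given beside the members they bear on.

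Of the 57 members, 36 had a mean of at least 10 normalized reads and were tested: 15 ADAM, 16 ADAMTS and all 5 ADAMTSL genes. Compared as reads per kilobase of exon at equal depth (RPKM, scaled to reads in genes), Adam15 was the most abundant transcript, with 40.1 ± 2.02 (SD, n = 8), followed by Adam9, a broadly expressed sheddase, with 32.4 ± 6.90 and Adamts2, which trims the amino end of fibrillar procollagens, with 27.2 ± 3.16. Adamts10, Adamtsl5 and Adamts1 stood next with 24.4 ± 4.03, 20.5 ± 3.43 and 18.9 ± 1.86 RPKM. At the low end, Adamts16, Adamts17 and Adamts20 were at 0.161, 0.128 and 0.0642 RPKM. Each gene's range over the 8 libraries overlapped that of the next gene in the order, so that neighbouring ranks are not distinct. Each role spanned a wide range of levels, from 0.227 to 40.1 RPKM in the sheddase ADAMs and from 0.0642 to 18.9 in the proteoglycan-cleaving ADAMTS.

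**Figure D1:**
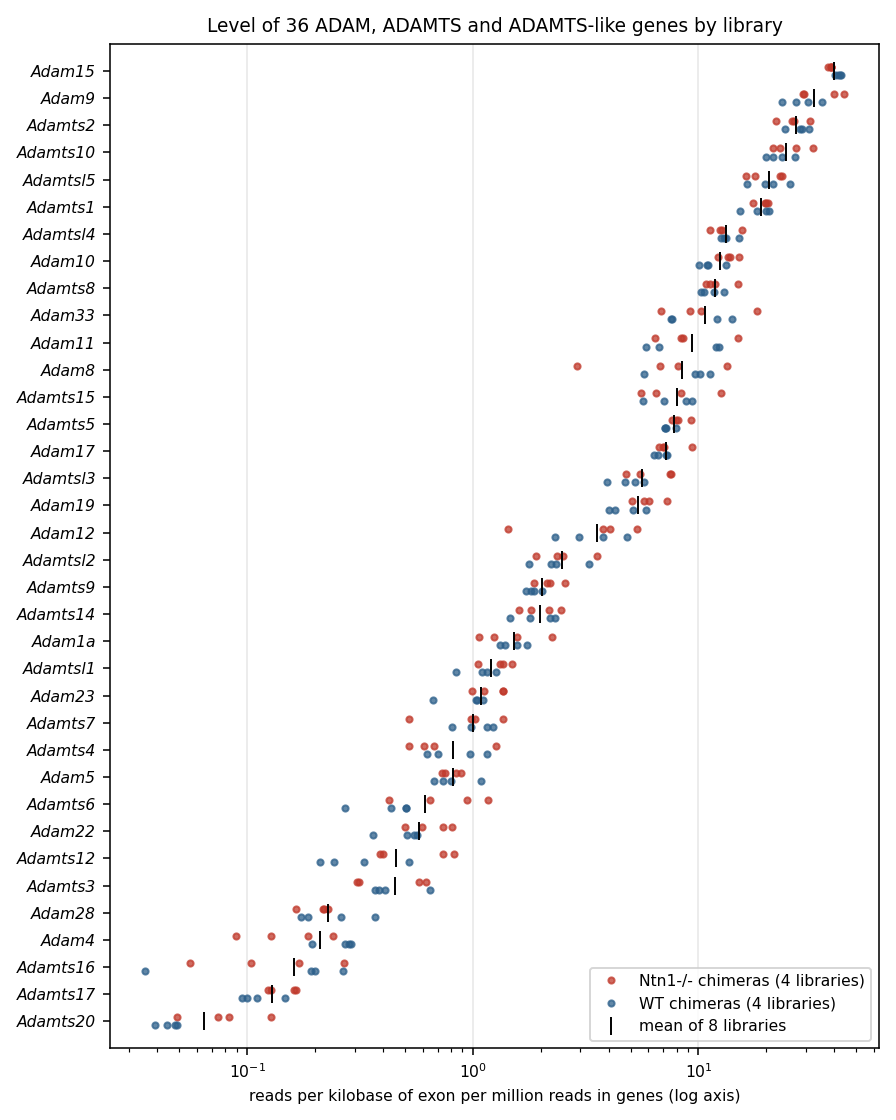
Level of each tested member in each library, in RPKM (log axis). Red points are the 4 Ntn1-/- libraries, blue points the 4 WT libraries and black ticks the mean of 8. Adam15, at 37.4 to 43.0, has the highest mean and points that lie close together, whereas Adam8 runs from 2.90 to 13.3.

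The other 21 members stayed under this mean. No read was found in any library for 7 of them (Adam7, Adam25, Adam26a, Adam26b, Adam29, Adam34 and Adam39), which are known from testis and epididymis, and a count of 0 allows up to 3 reads a library. The highest count of any untested member in 1 library was 12 reads. Adamts13, the protease of von Willebrand factor, was found with 11 reads over 8 libraries and at most 3.80 normalized reads, too few to compare. Adam32 stood just under the minimum with a mean of 9.05, and Adam4 just above it with 12.2. Adam2, Adam3, Adam18, Adam20, Adam21, Adam24, Adam30, Adam1b, Adam6a and Adam6b, known from sperm and testis in mouse, had 1 to 21 reads in all. Adamts18 and Adamts19 had 14 and 31.

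No member passed an adjusted p of 0.05 between the chimeras (limma on log2(value + 1), Benjamini-Hochberg over 14931 genes), and no gene of the table did (0%), with a smallest adjusted p of 0.248. At an unadjusted p under 0.05, 0 members were higher and 2 were lower in Ntn1-/- (Adam15 and Adam4), where 8.37% of all tested genes were higher and 7.25% were lower. This is 5.56% of the members beside 15.6% of all tested genes. Only for Adam15 did the 4 Ntn1-/- values lie apart from the 4 WT values, and they lay below, whereas 5.13% of all tested genes lay wholly above and 5.34% wholly below. Each of these shares of the members lay below that of all tested genes. In edgeR's quasi-likelihood test no gene was called, and 4 members were at an unadjusted p under 0.05 (Adamts6 and Adamts20 higher, Adam15 and Adam4 lower), which is 11.1% of the members beside 16.5% of all tested genes. DESeq2 called 1 member, Adam15, where it called 1.98% of tested genes higher and 1.36% lower, and it put 3 members at an unadjusted p under 0.05 (Adamts6 and Adamts12 higher, Adam15 lower), which is 6% of the 50 members with a read beside 14.3% of all genes with a read. With 1 aorta left out at a time, 2.78% to 13.9% of the members had an unadjusted p under 0.05 in limma, beside 9.97% to 15.9% of all tested genes, and the groups lay apart in 2.78% to 11.1% of the members, beside 11.9% to 17.7%.

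The estimates of the members were spread evenly around 0. The fold change was above 0 for 17 and below 0 for 19 members (47.2% above, beside 47.6% of all tested genes), with a median of -0.0062 on the log2 scale beside -0.015 over all tested genes. The intervals say what size of difference could have been missed: the 95% interval of the log2 fold change lay within 0.5 of 0 for 12 members and within 1 of 0 for 30. The median SD within groups was 0.28 on the log2 scale over the members, beside 0.21 over all tested genes.

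**Figure D2:**
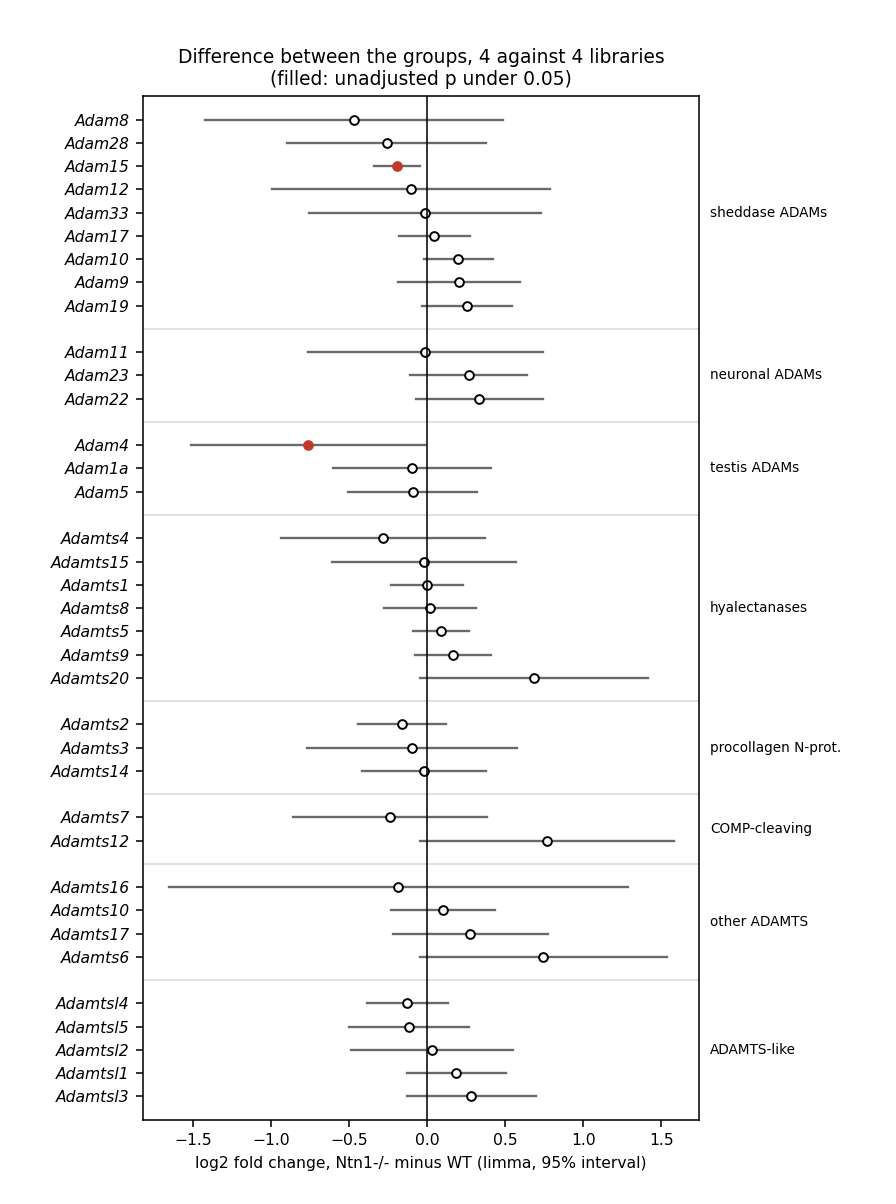
Log2 fold change of the 36 tested members, Ntn1-/- minus WT, with the 95% interval from limma (4 against 4 libraries), by role. Filled points are Adam15 and Adam4, the members with an unadjusted p under 0.05. The interval of Adam15 is short (-0.34 to -0.049), and that of Adamts16 runs from -1.66 to 1.28.

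Among the sheddase ADAMs, Adam15 separated the groups. This membrane protein, also called metargidin, is known from endothelium and vascular smooth muscle. The gene (chr3:89142464-89153932, minus strand) was at 5580.2, 5336, 5162 and 5193 normalized reads in Ntn1-/- A to D and at 6029, 6155, 6068 and 6071 in WT A to D. All 4 Ntn1-/- aortas lay below all 4 WT aortas, and the WT aortas differed little from each other (6081 ± 53.3, SD, n = 4, beside 5318 ± 191 in Ntn1-/-). The log2 fold change was -0.19 with a standard error of 0.064 (95% interval -0.34 to -0.049), so the step was small, with an unadjusted p of 0.0146 and an adjusted p of 0.253 in limma. The adjusted p was 0.246 in edgeR and 0.00725 in DESeq2, and over the alternatives it ran from 0.00725 to 0.499 while the fold change stayed between -0.22 and -0.18. The spread of Adam15 within groups was 0.037 on the log2 scale, smaller than that of all but 0.402% of tested genes, and by p it stood at place 327 of the 7827 genes with lower estimates. Its exons share 1263 bases with a gene annotated on the other strand, which was not analysed here, and the strand setting of the counting is not given in the sources used here, so reads of both could not be told apart. Summed endothelium markers (6 of 6 measured, none at 0) ran from 13382 to 17124 in Ntn1-/- and from 13510.5 to 15318 in WT. These ranges overlapped (exact permutation test, p = 0.229). Of these markers 1 was higher and 0 were lower in Ntn1-/- at an unadjusted p under 0.05 in limma. Their part in the values of Adam15 was not tested.

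Adam10 and Adam17, the main sheddases of Notch receptors and of tumour necrosis factor, showed values that overlapped between the groups. Adam10 was at 1594, 1499, 1342 and 1615 in Ntn1-/- A to D and at 1174, 1522, 1259 and 1322 in WT A to D. The Ntn1-/- values lay toward the upper end, but WT B was above Ntn1-/- B and Ntn1-/- C, and the log2 fold change was 0.20 (95% interval -0.023 to 0.42, adjusted p = 0.359 in limma). Adam17 was at 1180.0, 1115, 1071 and 1450.5 in Ntn1-/- and at 1123, 1204, 1196 and 1114 in WT. Ntn1-/- D was above the rest, the other 7 aortas lay between 1071 and 1204, and the log2 fold change of 0.046 (95% interval -0.18 to 0.27, adjusted p = 0.855 in limma) turned to -0.047 without Ntn1-/- D. Adam9 was at 4163, 2633, 2606 and 3454 in Ntn1-/- and at 2579, 3306, 2841 and 2322 in WT. Ntn1-/- A was the highest and WT D the lowest, with overlap between them and a log2 fold change of 0.20 (95% interval -0.19 to 0.59, adjusted p = 0.589 in limma). Adam19, which is needed for heart development in mouse, was at 1010.4 ± 121 in Ntn1-/- and at 850.1 ± 131 in WT (SD, n = 4 each), with a log2 fold change of 0.25 (95% interval -0.034 to 0.54). Without Ntn1-/- B and Ntn1-/- C, unadjusted p-values under 0.05 were found for Adam10 and Adam9 among these sheddases, both higher in Ntn1-/-, and no longer for Adam15. Of all members 11.1% had such a p in that comparison, beside 13.6% of all tested genes.

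Adam8, Adam12 and Adam33 varied far more between aortas of 1 group than between the groups. Adam8, a sheddase of leukocytes, was at 733, 301, 840.0 and 1342 in Ntn1-/- A to D and at 628, 1096, 1036 and 1282 in WT A to D. The lowest value was that of Ntn1-/- B, followed by WT A and Ntn1-/- A, and the highest that of Ntn1-/- D, so the Ntn1-/- aortas spanned the WT aortas on both sides (-0.47 on the log2 scale, 95% interval -1.42 to 0.49, adjusted p = 0.616 in limma). Without Ntn1-/- B the log2 fold change was -0.059, and without Ntn1-/- D it was -0.78. Adam12, which is made by mesenchymal cells in growth and repair, was at 783, 264, 699.5 and 957 in Ntn1-/- and at 455, 929, 727 and 602 in WT. Again Ntn1-/- B and WT A were the lowest and Ntn1-/- D and WT B the highest, and the log2 fold change of -0.10 (95% interval -0.99 to 0.79, adjusted p = 0.925 in limma) turned to 0.30 without Ntn1-/- B. Adam33, a gene of mesenchymal and smooth muscle cells that is linked to asthma in human, was at 1162, 2195, 1235 and 797 in Ntn1-/- and at 1807, 948, 950.1 and 1606 in WT. Here Ntn1-/- B was the highest and Ntn1-/- D the lowest, and the log2 fold change of -0.015 (95% interval -0.76 to 0.73, adjusted p = 0.990 in limma) ran from -0.28 to 0.20 as 1 aorta at a time was left out. Adam28, known from lymphocytes, was low, at 17.1 ± 1.98 in Ntn1-/- and 21.5 ± 7.69 in WT (SD, n = 4 each).

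**Figure D3:**
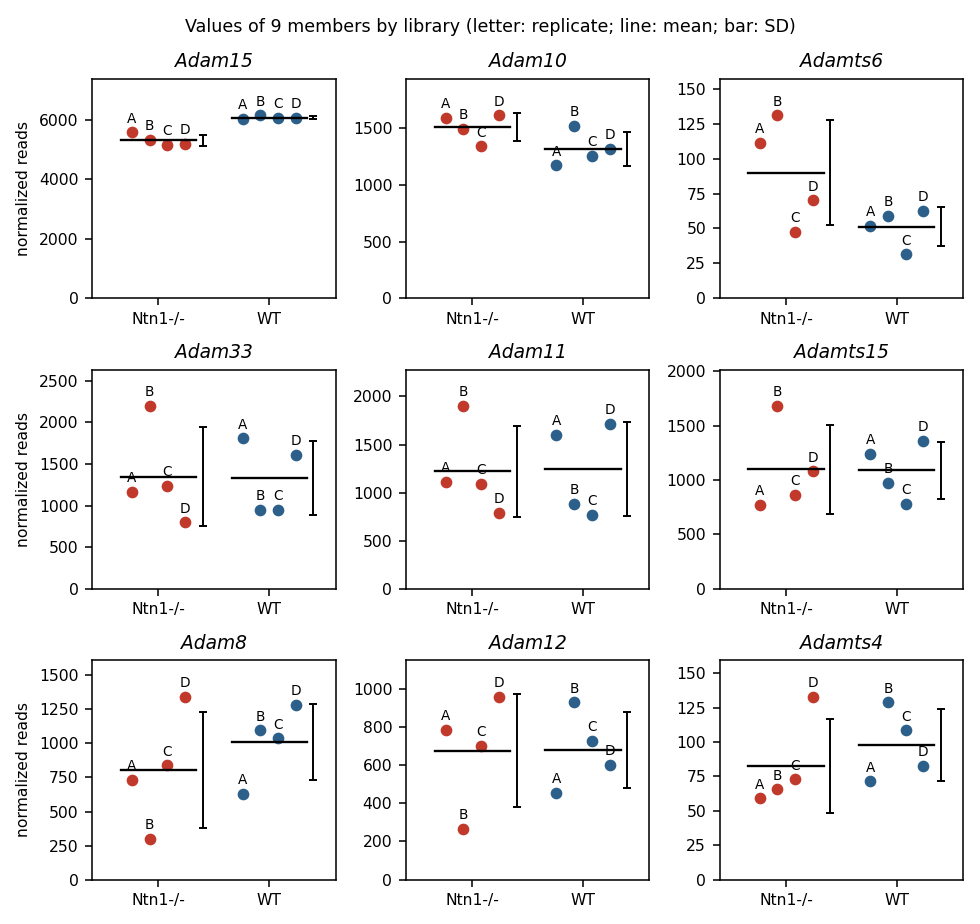
Normalized reads of 9 members in each library, with the mean (line) and SD (bar) of 4 libraries and the replicate letter above each point. In Adam15 the groups lie apart. In Adam33, Adam11 and Adamts15 the libraries Ntn1-/- B, WT A and WT D are the 3 highest, and in Adam8 and Adam12 Ntn1-/- B and WT A are the 2 lowest.

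Adam11, Adam22 and Adam23 are membrane proteins of neurons in which the site was not found, and the latter are receptors of LGI proteins at synapses. Adam11 was at 1112, 1899, 1088 and 789 in Ntn1-/- A to D and at 1604, 882, 771 and 1717 in WT A to D. As for Adam33, Ntn1-/- B, WT D and WT A were the 3 highest, and the means were near each other (-0.012 on the log2 scale, 95% interval -0.77 to 0.74). Adam22 was at 144, 222, 163 and 195 in Ntn1-/- and at 149, 160.3, 155 and 108 in WT. Ntn1-/- B was the highest and WT D the lowest, the groups overlapped, and the log2 fold change was 0.33 (95% interval -0.073 to 0.74, adjusted p = 0.397 in limma). Adam23 was at 254, 277, 336 and 324 in Ntn1-/- and at 268, 267, 283 and 180.3 in WT. Ntn1-/- C and Ntn1-/- D were the highest and WT D stood alone below, with a log2 fold change of 0.27 (95% interval -0.11 to 0.64). Summed neuron markers (10 of 10 measured, none at 0) were 5288 to 14903 in Ntn1-/- and 4757 to 5885 in WT (exact permutation test, 2-sided p = 0.0857), highest in Ntn1-/- B and Ntn1-/- C, and their part in these values was not tested.

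Of the ADAMs known mainly from testis, 3 were tested. Adam4 had few reads, 96 over 8 libraries, and was at 7.48, 10.5, 4.98 and 13.0 in Ntn1-/- A to D and at 11.5, 15.8, 16.3 and 17.7 in WT A to D. Ntn1-/- A, Ntn1-/- B and Ntn1-/- C lay below every WT aorta, Ntn1-/- D lay between WT A and WT B, and the log2 fold change was -0.76 (95% interval -1.51 to -0.015, unadjusted p = 0.0464, adjusted p = 0.314 in limma). Left-out libraries moved this value between -0.95 and -0.54, and the unadjusted p under 0.05 was lost without Ntn1-/- A, Ntn1-/- C, WT B, WT C or WT D, each in turn. Adam1a was at 106 ± 34.8 in Ntn1-/- and 109.9 ± 14.3 in WT (SD, n = 4 each), and shares 771 exonic bases with Mapkapk5 on the same strand, so its reads cannot all be assigned to it. Adam5 was at 56.6 ± 6.05 in Ntn1-/- and 61.1 ± 13.3 in WT.

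Values of the proteoglycan-cleaving ADAMTS genes overlapped between the groups. Adamts1, which cuts versican and aggrecan, was at 2520.5, 2354, 2073 and 2285 in Ntn1-/- A to D and at 2589, 2463, 2231 and 1979.8 in WT A to D. The 2 groups covered the same range, with a log2 fold change of -0.00089 (95% interval -0.23 to 0.23, adjusted p = 0.998 in limma). Adamts5, an aggrecanase, was at 1443, 1683, 1437 and 1424 in Ntn1-/- and at 1521, 1341, 1343 and 1412 in WT. Ntn1-/- B stood above the rest, WT A was second, and the log2 fold change was 0.090 (95% interval -0.090 to 0.27). Adamts9, which cuts versican, was at 629, 716, 619 and 508 in Ntn1-/- and at 535, 545, 585 and 527 in WT. The WT aortas lay close together and Ntn1-/- D was below them all while the other Ntn1-/- aortas were above, with a log2 fold change of 0.16 (95% interval -0.079 to 0.41, adjusted p = 0.480 in limma). Adamts9 shares 1805 exonic bases with other annotated genes.

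Adamts4 and Adamts15 were more variable. Adamts4, the other classical aggrecanase, was low, at 59.0, 65.6, 72.7 and 133 in Ntn1-/- and at 71.4, 129, 108 and 82.5 in WT. Ntn1-/- D and WT B were the highest and the rest of the Ntn1-/- aortas were low, with a log2 fold change of -0.28 (95% interval -0.93 to 0.37, adjusted p = 0.664 in limma). Without Ntn1-/- D it was -0.53, with an unadjusted p under 0.05. Adamts15, a versicanase, was at 775, 1679, 862 and 1080.0 in Ntn1-/- and at 1238, 973, 781 and 1362 in WT. Its highest aortas were again Ntn1-/- B, WT D and WT A, and the log2 fold change was -0.021 (95% interval -0.61 to 0.57). Adamts8 was at 1271 ± 233 in Ntn1-/- and at 1244 ± 127 in WT (SD, n = 4 each). Adamts20, a gene of pigment cell development in mouse, was near the minimum, at 17.5, 25.7, 14.9 and 9.54 in Ntn1-/- and at 10.4, 9.27, 8.16 and 10.6 in WT, with Ntn1-/- B the highest and Ntn1-/- D among the WT values (0.68 on the log2 scale, 95% interval -0.044 to 1.41, adjusted p = 0.339 in limma).

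The procollagen N-proteinases Adamts2, Adamts3 and Adamts14 had estimates below 0. Adamts2, which acts on procollagens of the fibrils that give the aortic wall its strength, was at 6813, 5443, 4619 and 5355 in Ntn1-/- A to D and at 6805, 6261, 6079.7 and 5523 in WT A to D. Ntn1-/- C was the lowest, but Ntn1-/- A was above all WT aortas, and the log2 fold change was -0.16 (95% interval -0.44 to 0.12, adjusted p = 0.556 in limma). Without Ntn1-/- A the groups lay apart, at -0.26 on the log2 scale and an unadjusted p under 0.05. In that comparison 13.9% of all tested genes lay apart and 12.5% had such a p. Adamts14 was at 235 ± 41.3 in Ntn1-/- and 239 ± 44.9 in WT, and Adamts3, which also processes VEGF-C, at 87.7 ± 33.5 and 91.1 ± 25.3 (SD, n = 4 each). Their log2 fold changes were -0.021 (95% interval -0.42 to 0.37) and -0.097 (95% interval -0.77 to 0.57).

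Adamts7 and Adamts12, which both cleave COMP, had estimates of opposite sign. Adamts7, which lies at a locus of coronary artery disease in human, was at 146, 74.2, 145 and 187 in Ntn1-/- A to D and at 122, 171, 181 and 153 in WT A to D. Ntn1-/- B stood alone at the bottom and Ntn1-/- D at the top, and the log2 fold change of -0.24 (95% interval -0.86 to 0.38, adjusted p = 0.704 in limma) turned to 0.033 without Ntn1-/- B. Adamts12 was at 108, 54.2, 55.8 and 112 in Ntn1-/- and at 31.1, 76.0, 35.0 and 50.7 in WT. Ntn1-/- A and Ntn1-/- D were the highest, Ntn1-/- B and Ntn1-/- C lay within the WT values, and the log2 fold change was 0.77 (95% interval -0.043 to 1.58, unadjusted p = 0.0608, adjusted p = 0.336 in limma). It had an unadjusted p under 0.05 in limma when Ntn1-/- B, Ntn1-/- C or WT B was left out. The opposite signs were not tested against each other.

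Adamts6 and Adamts10 bind fibrillin microfibrils and are close relatives. Adamts6 was at 111, 131, 47.8 and 70.3 in Ntn1-/- A to D and at 51.8, 59.3, 31.5 and 62.5 in WT A to D. Ntn1-/- A and Ntn1-/- B were the highest, Ntn1-/- D was just above the WT aortas, Ntn1-/- C was within them, and the log2 fold change was 0.74 (95% interval -0.046 to 1.53, unadjusted p = 0.0620, adjusted p = 0.338 in limma). Without Ntn1-/- C it was 1.01 and the groups lay apart, as they did for 17.7% of all tested genes. Adamts10, one of the most abundant members, was at 3185 ± 619.9 in Ntn1-/- and at 2943 ± 364 in WT (SD, n = 4 each), with a log2 fold change of 0.10 (95% interval -0.23 to 0.43). Adamts17 was at 23.3 ± 3.09 and 19.2 ± 3.66, and Adamts16 at 22.7 ± 13.5 and 27.7 ± 15.4, in the same order.

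The 5 ADAMTS-like genes, whose products bind fibrillin microfibrils or other matrix without cutting it, were all tested, and none passed an unadjusted p of 0.05. Adamtsl4, which is needed for the fibres that hold the eye lens in human, was at 1249, 1462, 1177 and 1029.7 in Ntn1-/- A to D and at 1497, 1264, 1229 and 1359 in WT A to D. WT A and Ntn1-/- B were the highest and Ntn1-/- D the lowest, with a log2 fold change of -0.13 (95% interval -0.39 to 0.13). Adamtsl3 was at 1106 ± 271 in Ntn1-/- and 895 ± 127 in WT (0.28 on the log2 scale, 95% interval -0.13 to 0.69). Adamtsl5, Adamtsl2 and Adamtsl1 had log2 fold changes of -0.12, 0.030 and 0.19.

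By role, estimates on both sides of 0 were found in most groups. Of 9 tested sheddase ADAMs 4 had estimates above 0, of 7 proteoglycan-cleaving ADAMTS 4, of 3 procollagen N-proteinases 0 and of 5 ADAMTS-like genes 3. Medians of the log2 fold change were -0.015, 0.021, -0.10 and 0.03 in these groups, beside -0.015 over all tested genes. The 26 members with a zinc site and the 10 without held 1 member each at an unadjusted p under 0.05.

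Some members shared an order of aortas that crossed the groups, at shares near those of all tested genes. Adam33, Adam11, Adamts15 and Adamtsl4 had the same 3 highest libraries, Ntn1-/- B, WT A and WT D (11.1% of the tested members, beside 7.39% of all tested genes, a set chosen after the values were seen). Summed smooth muscle markers (6 of 6 measured, none at 0) were highest in the same aortas, with 808349 in Ntn1-/- B, 772863 in WT A and 626382 in WT D, just above 625212 in Ntn1-/- A, and lowest in Ntn1-/- D with 310699. Their ranges overlapped between the groups (310699 to 808349 in Ntn1-/-, 464170 to 772863 in WT, exact permutation test, 2-sided p = 0.971). In whole aorta, fewer cells of a type and less RNA per cell cannot be told apart.

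The reverse order was seen in Adam8, Adam12, Adamts7, Adamts4 and Adamts3, which all had Ntn1-/- B and WT A among their 3 lowest libraries and Ntn1-/- D and WT B among their 3 highest (13.9% of the tested members, beside 10.2% of all tested genes, again a set chosen after the values were seen). Of 6 macrophage markers 5 were measured, and Adgre1 was not found under that symbol. By PCR, the authors report less Adgre1 mRNA in aortas of Ntn1-/- than of WT chimeras. The summed macrophage markers (none at 0) were likewise highest in Ntn1-/- D with 26872 and WT B with 25643. They were lowest in Ntn1-/- B with 7308, WT A with 13714 and Ntn1-/- A with 15866. Adam8 had the same 3 lowest aortas in the same order. So did summed adipocyte markers, with 85654 in Ntn1-/- B, 100205 in WT A and 106457 in Ntn1-/- A, and they were highest in WT D with 211811. Most of this sum came from Fabp4. Ucp1, of the same list, had another order, with 20231 in Ntn1-/- B, 18756 in WT A and its lowest value in Ntn1-/- D, at 6332. Summed fibroblast markers (6 of 6 measured, none at 0) ran from 136317 in Ntn1-/- B to 284839 in WT C. Most of this sum came from Col1a1 and Col3a1. These genes, Lum and Pi16 were each lowest in Ntn1-/- B, whereas Pdgfra was highest there, at 1762, and lowest in WT C, at 963. Dcn was lowest in Ntn1-/- A. Both sums overlapped between the groups (macrophage 7308 to 26872 in Ntn1-/- and 13714 to 25643 in WT, p = 0.429, and fibroblast 136317 to 266255 and 162002 to 284839, p = 0.400, exact permutation tests, 2-sided), and their part in the values of these members was not tested.

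**Figure D4:**
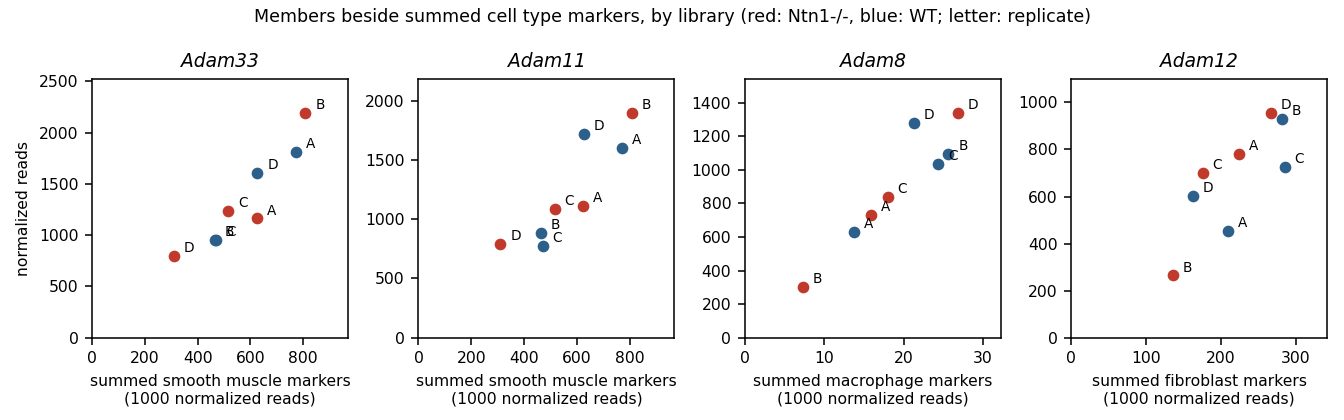
Normalized reads of 4 members (vertical axis) beside the summed normalized reads of smooth muscle, macrophage or fibroblast markers (horizontal axis) in the 8 libraries, red for Ntn1-/- and blue for WT, with replicate letters. Ntn1-/- B lies at the upper right for Adam33 and Adam11 and at the lower left for Adam8 and Adam12, and both colours run along each panel.

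The single aortas also differed in how often they held the extreme value. Ntn1-/- B was the highest library for 12 of 36 members (33.3%, beside 21.7% of all tested genes). Ntn1-/- C was the lowest for 9 members (25.0%, beside 5.91%), and WT D for 8 (22.2%, beside 13.9%). The median deviation of the members from their own mean was -0.13 on the log2 scale in Ntn1-/- C and -0.10 in WT D, and between -0.047 and 0.053 in the other 6 aortas.

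**Figure D5:**
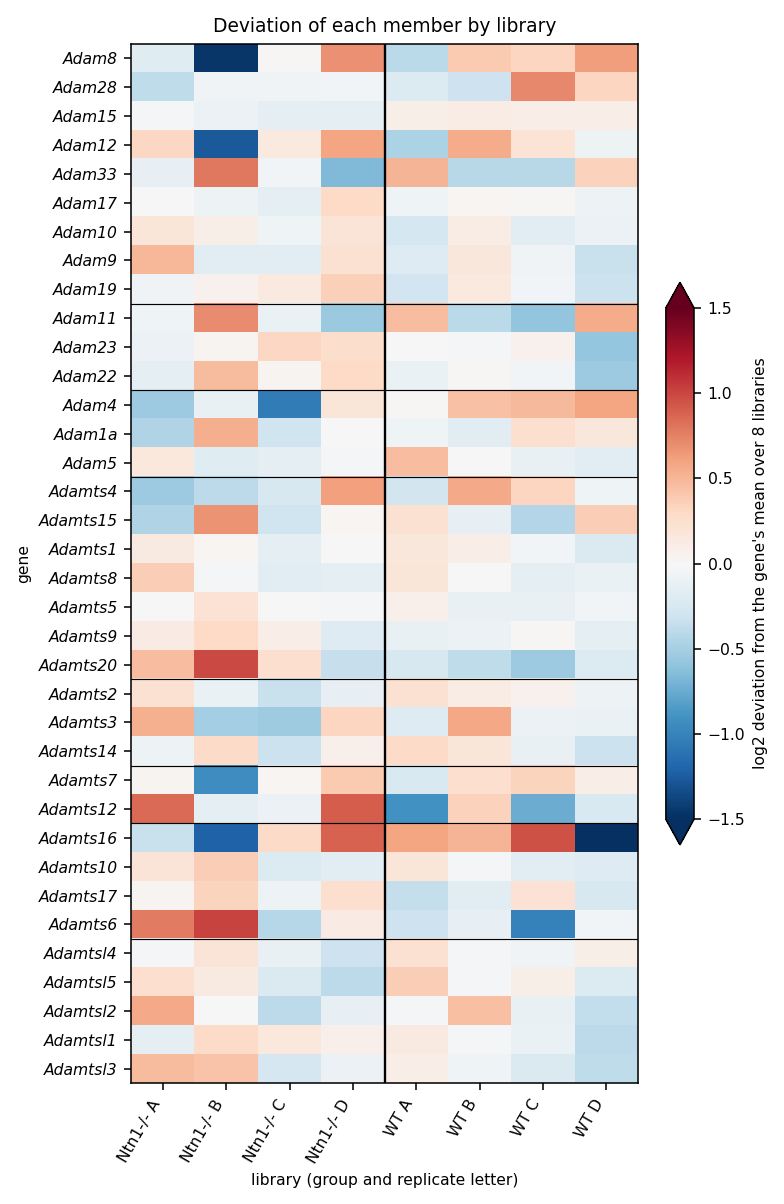
Log2 deviation of each tested member (rows, by role) from its own mean over 8 libraries (columns), with colours cut at 1.5 in either direction. The row of Adam15 is pale, at 0.037 within groups. Ntn1-/- B is blue for Adam8, Adam12 and Adamts7 and red for Adam33, Adam11 and Adamts15.

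A list of 81 gene symbols held inhibitors, cofactors and activators of ADAM and ADAMTS enzymes, cell surface substrates, matrix substrates and relatives. Of these symbols 80 were measured and 78 tested, and the 1 not found, B3glct, is another name of B3galtl, which was measured. None passed an adjusted p of 0.05. At an unadjusted p under 0.05, 2 of the 78 were higher and 0 were lower in Ntn1-/-. These are smaller shares than the 8.37% and 7.25% of all tested genes. Tgfa and Btc, ligands of the epidermal growth factor receptor that are released from the membrane by Adam17 and Adam10, were those genes. Tgfa was at 105, 133, 119 and 121 in Ntn1-/- A to D and at 81.7, 97.3, 112 and 75.4 in WT A to D. All but Ntn1-/- A were above every WT aorta, with a log2 fold change of 0.39 (SE 0.16, adjusted p = 0.294 in limma). Btc was at 175, 304, 218 and 183 in Ntn1-/- and at 197, 136, 114 and 156 in WT. Ntn1-/- B was the highest, WT A was above Ntn1-/- A and Ntn1-/- D, and the log2 fold change was 0.54 (SE 0.22, adjusted p = 0.297 in limma). Estimates were above 0 for 7 of 21 regulators, 17 of 30 shed substrates, 6 of 24 matrix substrates and partners and 3 of 3 relatives, with medians of -0.08, 0.03, -0.11 and 0.24 on the log2 scale.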

How the data were processed

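RNA from 8 whole aortas, 4 per group and 1 library each, was read by the authors on a HiSeq (single-end, 50 nucleotides), aligned to mm9 with TopHat2 2.0.9 and counted per gene with featureCounts. The authors deposited a signal: for every gene, reads over the size factor that DESeq2 gave the library. Columns and tables that hold the authors' own fold changes, p-values and pathways were not used. When a library's values were divided by the smallest step between them, 100% of 187360 were whole to within 0.001. A total of 19879329 to 28202931 reads per library sets the precision. No library was a duplicate, as chi-square over its degrees of freedom was 9.60 to 175 in 28 pairs.

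Signal was tested as log2(value + 1) with limma 3.58.1 (empirical Bayes with trend, R 4.3.3) across the 14931 genes that averaged 10 or more, Benjamini-Hochberg adjusted, with a threshold of 0.05. A fold change on this scale understates the change of low genes. Alternatives were pseudocounts of 0.5 and 5, no filter, edgeR 4.0.16 and DESeq2 1.42.0 on recovered reads, a replicate block, leaving out each aorta, and leaving out Ntn1-/- B and Ntn1-/- C. Groups came from the labels. The fit was tested on simulated data. Positions, exonic lengths and coding sequences came from GENCODE vM1 on NCBIM37, which matched all 57 members and may not be the annotation the authors used.

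Members, roles and lists were chosen with earlier results of these data known. Given with all 8 values were members at an unadjusted p under 0.05, members whose groups do not overlap and a set of members known from the artery wall or from shedding, and other members by means or ranges. Adam1b, Adam11, Adam22, Adam23, Adamts6, Adamts15 and Adamts20 were singled out after their values were seen.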

Additional observations from a re-analysis of the deposited data

Results flagged for a closer look

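In each group of 4 aortas, a value set far apart from the other 3 was looked for with Dixon's criterion, which chance meets in about 1 in 20 groups. Of 72 groups examined over the tested members 4 met it, where chance gives 3.6. Adamts5 was at 1683 normalized reads in Ntn1-/- B, while the other Ntn1-/- aortas lay between 1424 and 1443. Adam23 was at 180.3 in WT D, below 266.9 to 283.3 in the other WT aortas. Adamts3 was at 128.8 in WT B, above 74.8 to 80.4. Adam28 was at 14.1 in Ntn1-/- A, below 17.9 to 18.2. Each of these values lies in another aorta.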

How the results depend on the processing

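Fold changes of 21 members were computed under 17 alternatives each, and of 357 values 334 kept their direction and their side of the threshold, 22 changed sign and 1 passed it, that of Adam15 in DESeq2 (-0.19 on the log2 scale). The changes of sign were found in 6 of these 21 members, with estimates that were small beside their spread. The other tested members are not in these counts, and several of them also changed sign over the alternatives. Their log2 fold changes ran, for example, from -0.32 to 0.17 for Adam11, from -0.25 to 0.13 for Adamts15 and from -0.29 to 0.38 for Adamts3. Adam33 was at 0.023 in edgeR with TMM and with DESeq2 size factors, at 0.041 in edgeR with no filter and at 0.021 in DESeq2. With no filter in edgeR, Adamts1 was at 0.013 and Adam12 at 0.011. Without Ntn1-/- B and Ntn1-/- C, Adamts1 was at 0.059, Adam8 at 0.021, Adam12 at 0.40 and Adamts7 at 0.095. With 1 aorta left out at a time, log2 fold changes ran from -0.074 to 0.055 for Adamts1, from -0.28 to 0.20 for Adam33, from -0.047 to 0.099 for Adam17, from -0.32 to 0.30 for Adam12 and from -0.41 to 0.033 for Adamts7.

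The number of members at an adjusted p under 0.05 was 0 in limma and edgeR under each alternative run, and 1 in DESeq2. At an unadjusted p under 0.05, the 0 higher members became 1 with no filter (Adam1b, a gene with 7 reads), 2 in edgeR under each of its settings, 2 in DESeq2, 4 without Ntn1-/- B and Ntn1-/- C, and 0 to 4 with 1 aorta left out. The 2 lower members became 1 in edgeR with no filter and in DESeq2, 0 without Ntn1-/- B and Ntn1-/- C, and 1 to 3 with 1 aorta left out. The 1 member whose groups lay apart became 5 without Ntn1-/- B and Ntn1-/- C (13.9% of the members, beside 28.3% of all tested genes), and 1 to 4 with 1 aorta left out (2.78% to 11.1%, beside 11.9% to 17.7%). Besides Adam15, the groups lay apart in at least 1 of these for Adam4, Adam10, Adam22, Adamts2, Adamts5, Adamts6, Adamts9, Adamts12, Adamts17 and Adamts20. The cause of these shifts was not tested.

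No pairing of the aortas by the letters A to D was seen, as the correlations of same-lettered deviations were -0.0082, -0.30, 0.15 and -0.26. Different letters gave values from -0.66 (Ntn1-/- D with WT A) to 0.64 (Ntn1-/- B with WT A). Differences between aortas of this size could hide a pairing, so it is not excluded. With the letter as a replicate block, 2 members were higher (Adamts6 and Adamtsl3) and 0 lower at an unadjusted p under 0.05, and 1806 genes in all, in place of 2333. With 4 aortas per group, differences within the intervals given could not be seen.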

Other observations

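Several members are neighbours on a chromosome without sharing a level. On chromosome 8, Adam18, Adam3, Adam5, Adam32 and Adam9 follow each other on the minus strand with gaps of 2.47, 1.24, 11.8 and 0.806 kb, and their means over 8 aortas were 0.238, 1.72, 58.8, 9.05 and 2988 normalized reads. Adam9 thus stood alone as an abundant transcript beside genes known from testis. On chromosome 16, Adamts1 and Adamts5 lie 55.1 kb apart on the minus strand, with means of 2312 and 1450.5. On chromosome 9, Adamts15 and Adamts8 lie 20.1 kb apart on opposite strands, with means of 1094 and 1257, and Adamts15 ran from 774.5 to 1679 over the aortas where Adamts8 ran from 1122 to 1615.

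Adam1a and Adam1b, neighbours on chromosome 5 at a distance of 15.6 kb, have the same zinc site over all 33 bases, yet Adam1a had a mean of 107.9 normalized reads and Adam1b one of 0.800. Adam1b was found with 7 reads, in each of the 4 Ntn1-/- aortas and in 1 WT aorta. The copies were compared over this site alone, and how the authors' counting treated reads that fit more than 1 gene is not given in the sources used here.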
